A study of Mus musculus with 15 samples.

Results

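The genes described here carry glucose into islet cells and add or remove its phosphate. They were 8 named members, the transporter genes Slc2a1, Slc2a2 and Slc2a3, the hexokinase genes Hk1 and Hk2, the glucose 6-phosphatase genes G6pc2 and G6pc3, and Pfkfb2, all 8 of which were among the 19938 genes measured. Each gene was represented by the transcript cluster (a set of probes along one gene) that carried its symbol alone and had the highest mean over 15 arrays. The arrays, Affymetrix Mouse Gene 1.0 ST, were made from mouse islet cells. Of these, 5 were titled Pdx1-deficient, 5 alpha and 5 beta.

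All samples came from mice of a mixed B6 and BALB/C background. The Pdx1-deficient cells, labelled PKO and described as reprogrammed, were taken 5 days after tamoxifen. Their age, their Cre driver and their sorting are not given in the labels. The control cells were sorted for YFP from mice of 2 months. The samples titled alpha carry the genotype label RIP-CreER; Pdx1fl/+, RosaYFP, an insulin-promoter Cre that needs tamoxifen plus 1 floxed Pdx1 allele. The samples titled beta carry glucagon-Cre; RosaYFP, so the drivers stand with the opposite cells to those in which they are usually active. Groups were taken from the titles. No label ties a sample to its own animal, and p-values therefore cover the spread among the deposited samples, part of which may be technical.

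In beta cells glucose enters through facilitative transporters of the Slc2a family and is then trapped by phosphorylation, and the rate of this first step sets how strongly the cell answers to glucose. Slc2a2 encodes GLUT2, the high-capacity transporter of rodent beta cells and hepatocytes. Slc2a1 and Slc2a3 encode GLUT1 and GLUT3, high-affinity transporters of many other cells. Hk1 and Hk2 encode high-affinity hexokinases that are normally kept low in mature beta cells. G6pc2 encodes an islet glucose 6-phosphatase that removes the phosphate again, G6pc3 a related enzyme found in most tissues, and Pfkfb2 an enzyme that makes and degrades fructose 2,6-bisphosphate, the activator of phosphofructokinase.

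The promoters of the 2 members with the largest differences from beta arrays, Slc2a2 and G6pc2, and of G6pc3 are shown because the signals of these 3 genes are followed array by array below. Each window runs from 250 bases before to 50 bases after a RefSeq start site on GRCm38.p6, 5′ to 3′ on the gene's strand, at chr3:28697653-28697952 (plus strand) for Slc2a2, chr2:69210823-69211122 (plus) for G6pc2, chr2:69219699-69219998 (plus) for a second, downstream start of G6pc2 and chr11:102189449-102189748 (plus) for G6pc3. The capitals mark matches on either strand to the 5 searched motifs: TAATTA, of the homeodomain type, and its relatives CTAATG with TTAATG, the E-box CACGTG, and a motif of the HNF1 type.
Slc2a2: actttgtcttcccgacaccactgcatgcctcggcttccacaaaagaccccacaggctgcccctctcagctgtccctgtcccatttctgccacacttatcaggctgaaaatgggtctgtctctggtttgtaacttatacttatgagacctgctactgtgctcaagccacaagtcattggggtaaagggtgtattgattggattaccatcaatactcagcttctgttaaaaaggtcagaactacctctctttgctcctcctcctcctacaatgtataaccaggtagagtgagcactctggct
G6pc2, first start: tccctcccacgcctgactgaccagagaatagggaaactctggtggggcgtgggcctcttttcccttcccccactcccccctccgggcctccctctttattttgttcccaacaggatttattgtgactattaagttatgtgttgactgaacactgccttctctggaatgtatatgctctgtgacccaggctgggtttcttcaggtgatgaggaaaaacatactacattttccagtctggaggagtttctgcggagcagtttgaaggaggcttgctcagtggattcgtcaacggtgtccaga
G6pc2, second start: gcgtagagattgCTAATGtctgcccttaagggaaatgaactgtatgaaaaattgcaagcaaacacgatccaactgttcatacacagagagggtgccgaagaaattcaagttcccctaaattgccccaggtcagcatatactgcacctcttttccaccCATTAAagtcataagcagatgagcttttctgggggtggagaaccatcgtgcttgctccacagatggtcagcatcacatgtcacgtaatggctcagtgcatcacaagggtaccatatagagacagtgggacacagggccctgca
G6pc3: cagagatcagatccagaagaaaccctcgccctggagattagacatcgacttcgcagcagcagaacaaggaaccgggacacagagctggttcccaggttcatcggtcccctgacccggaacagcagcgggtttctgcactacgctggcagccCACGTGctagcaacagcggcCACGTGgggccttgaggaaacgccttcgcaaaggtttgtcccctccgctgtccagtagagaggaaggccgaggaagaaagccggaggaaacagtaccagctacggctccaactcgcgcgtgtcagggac
The Slc2a2 window and the first G6pc2 window held 0 matches. The second G6pc2 window held 1 CTAATG and 1 TTAATG, found as its reverse complement, and the G6pc3 window held 2 CACGTG. Among all 32851 promoter windows of the table, 7.36% held CTAATG, 8.84% TTAATG, 7.15% CACGTG, 5.29% TAATTA and 0.399% the HNF1-type motif. CACGTG also occurred once in 1 of the 3 Pfkfb2 windows. The table held windows for 7 of the 8 members, 11 windows in all. A match is a description of letters, not a binding site, and these arrays do not show which start was used.

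Across the whole table, limma called 217 genes between Pdx1-deficient and beta arrays at an adjusted p under 0.05 (1.09% of genes, 14.7% of them higher, or 4.23% higher with array medians subtracted). Between alpha and beta arrays it called 806 (4.04%, 22.1% of them higher, or 10.4%), and between Pdx1-deficient and alpha arrays 0 (0%, with 1197 at an unadjusted p under 0.05). The target gene went against its label on 1 array. Pdx1 read 9.12 on replicate 1 of those labelled Pdx1-deficient, against 7.83, 7.68, 6.53 and 7.59 on replicates 2 to 5 and 8.85 to 9.33 on beta arrays. It read 7.27 to 8.21 on alpha arrays. The sources used here do not say whether the probes fall within the deletion. The titles were checked on markers that are not members. The mean log2 signal of 5 beta-cell genes (Ins2, Iapp, Mafa, Ucn3 and Nkx6-1) was 9.86 on Pdx1-deficient replicate 1 and 8.85 to 9.40 on replicates 2 to 5, 8.94 to 9.37 on alpha arrays and 9.75 to 10.14 on beta arrays. That of 6 alpha-cell genes (Gcg, Irx1, Irx2, Ttr, Smarca1 and Slc7a2) was 9.18 to 9.44 on Pdx1-deficient and 8.77 to 9.09 on beta arrays. On alpha arrays it was 9.22 on replicate 2 and 9.89 to 10.08 on the other 4. Alpha replicate 2 thus lay in the Pdx1-deficient range. The insulin gene Ins2 did not separate the groups, with 11.90 to 12.12 on Pdx1-deficient, 11.86 to 12.09 on alpha and 11.77 to 11.98 on beta arrays. The glucagon gene Gcg overlapped too, at 12.345 to 12.79, 12.49 to 12.87 and 12.15 to 12.51 in the same order. Its alpha against beta difference was 0.39 (limma adjusted p = 0.0638). Among the 6 alpha-cell genes, Smarca1 (2.02) and Slc7a2 (1.32) differed most between alpha and beta arrays. In such bulk samples, fewer cells of a type and less RNA per cell cannot be told apart. Acinar markers stood out on alpha replicate 5, with a mean of 11.25 over 8 genes where the other 14 arrays had 5.71 to 7.33. That array was also the lowest alpha array for Slc2a1, Slc2a2, G6pc2 and Pfkfb2 and the highest for Slc2a3, Hk2 and G6pc3. Without it, alpha against beta gave -0.60 for Slc2a1 (limma adjusted p = 0.0983), -1.84 for Slc2a2 (limma adjusted p = 0.102) and 0.42 for Slc2a3 (limma adjusted p = 0.0823), which no longer passed, and -1.50 for G6pc2 (limma adjusted p = 0.0464), which did.

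**Figure D1:**
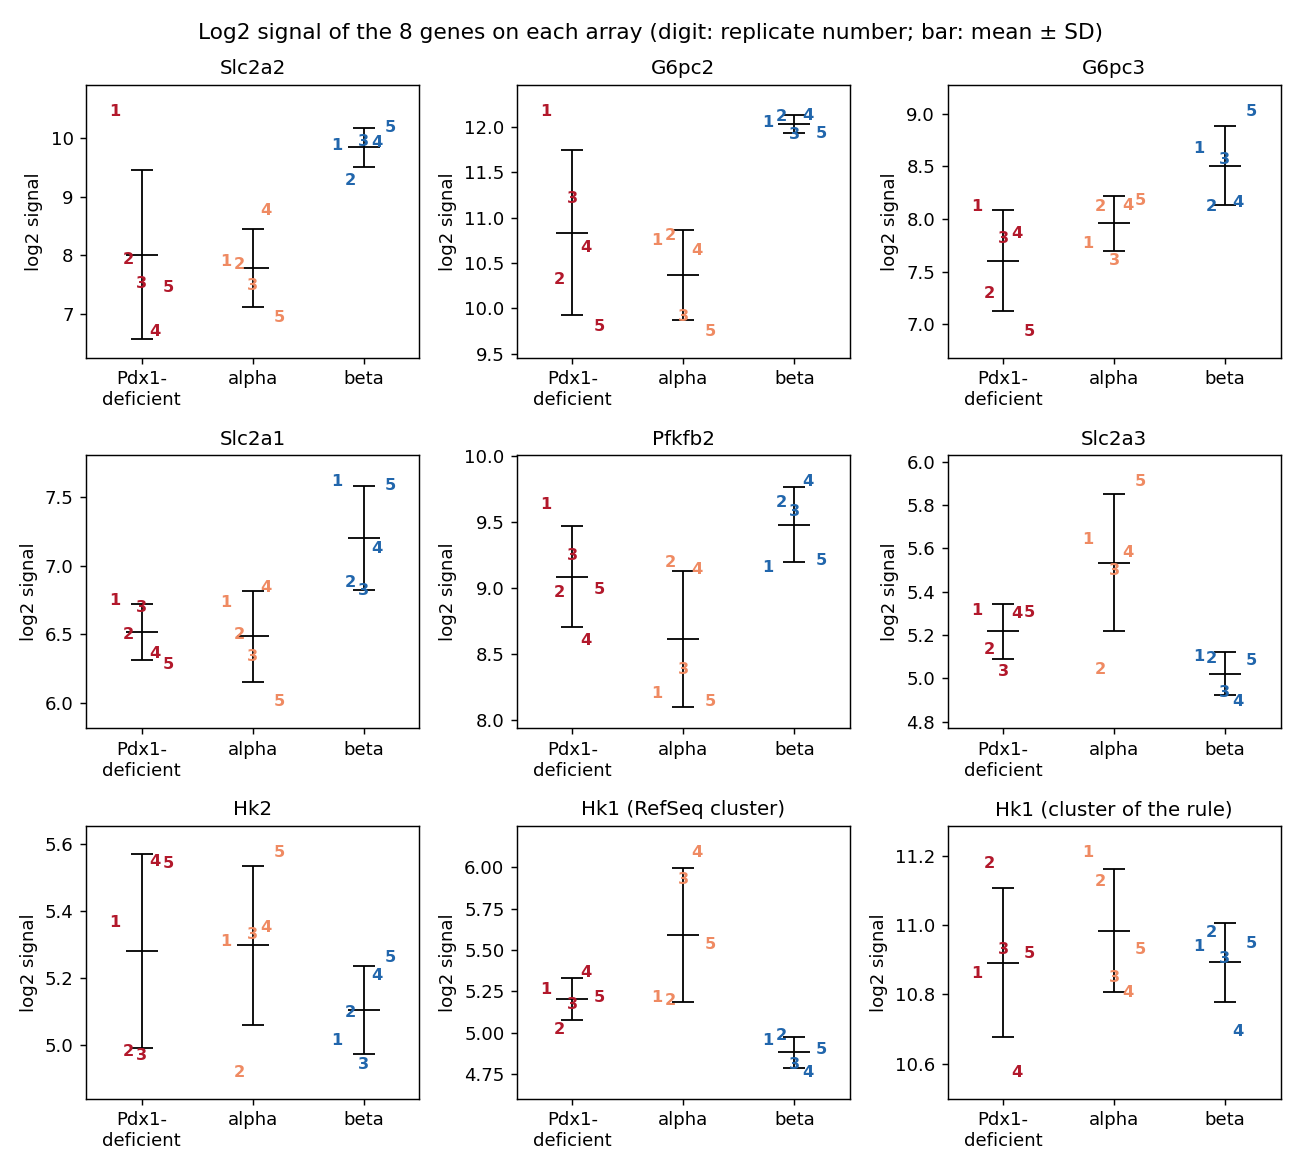
Log2 signal (y axis) of the 8 genes on each array, with Hk1 drawn from both of its clusters. Digits are replicate numbers in the Pdx1-deficient, alpha and beta groups, and bars are the mean ± SD of 5 arrays. Slc2a2 and G6pc2 share one pattern: the array labelled Pdx1-deficient replicate 1 lies above the beta arrays (10.46 and 12.17) and replicates 2 to 5 lie far below them.

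Slc2a2, the GLUT2 gene (chromosome 3, cluster 10491171), was the member with the widest differences from beta arrays. Replicates 1 to 5 labelled Pdx1-deficient had log2 signals of 10.46, 7.94, 7.52, 6.71 and 7.45, against 9.88, 9.28, 9.95, 9.92 and 10.19 on beta arrays. Thus 4 Pdx1-deficient arrays lay below every beta array and 1 lay above every beta array. The group means were 8.02 ± 1.44 and 9.85 ± 0.34 (SD, n = 5 each), a log2 difference of -1.83 (95% interval -2.97 to -0.69), or 3.55-fold lower, which did not pass (limma adjusted p over all genes = 0.0915; two-sided exact permutation p = 0.0476). With the array labelled Pdx1-deficient replicate 1 left out, Slc2a2 differed by -2.44 and passed (limma adjusted p = 0.00395). This was the only 1 of 15 single leave-outs in which it passed. That array was singled out from its values in these data and had the highest Slc2a2 signal, so the fit without it is no independent result. Without Pdx1-deficient replicates 4 and 5 together, an alternative chosen after seeing the data, it was -1.21 (limma adjusted p = 0.55).

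In alpha cells Slc2a2 fell 4.16-fold compared with beta cells. It read 7.90, 7.85, 7.49, 8.76 and 6.93 on alpha replicates 1 to 5, and the highest of these lay under the lowest beta array at 9.28; 6.34% of all genes had alpha and beta groups that did not overlap, 2.29% higher and 4.05% lower. The difference was -2.06 (SE 0.53, limma adjusted p = 0.0442; exact permutation p = 0.00794, the lowest value possible with 5 arrays in each group). Close to its threshold, the limma call was lost under 12 of 25 alternatives. It passed in 5 of 15 fits that each left out 1 array and was lost without any one of beta replicates 1 to 5, alpha replicates 1, 3 and 5, or Pdx1-deficient replicates 2 and 3, with adjusted p between 0.0515 and 0.103. With the replicate number as a block the adjusted p was 0.0601. Pdx1-deficient minus alpha arrays gave 0.23 (95% interval -0.91 to 1.36, limma adjusted p = 0.992). This interval leaves room for more than a 2-fold difference upwards and a somewhat smaller one downwards. The difference itself turned to -0.38 without Pdx1-deficient replicate 1. With all arrays the order of the means was beta, Pdx1-deficient and alpha, and the last pair did not differ beyond its spread.

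Slc2a1, the GLUT1 gene (chromosome 4, cluster 10507594), was lower on every Pdx1-deficient array than on any beta array. It read 6.75, 6.49, 6.70, 6.36 and 6.28 on Pdx1-deficient replicates 1 to 5, against 7.61, 6.87, 6.82, 7.13 and 7.58 on beta arrays. The highest Pdx1-deficient array (6.75) lay just under the lowest beta array (6.82), so the groups did not overlap, as was true of 5.96% of all genes (2.77% higher and 3.18% lower). The difference of -0.69 (95% interval -1.08 to -0.29) did not pass (limma adjusted p over all genes = 0.077; exact permutation p = 0.00794). It passed with array medians subtracted (-0.79, limma adjusted p = 0.0425). In alpha cells Slc2a1 fell by 0.72 on the log2 scale (SE 0.19, limma adjusted p = 0.0436), with 6.73, 6.50, 6.33, 6.84 and 6.01 on alpha replicates 1 to 5, of which 4 lay below every beta array. This call was lost under 12 of 25 alternatives, among them fits without any one of beta replicates 1, 4 and 5, alpha replicates 1, 3 and 5, or Pdx1-deficient replicates 2 and 3 (limma adjusted p 0.0525 to 0.106), and with the replicate number as a block (0.0566). Pdx1-deficient and alpha arrays differed by 0.03 (95% interval -0.36 to 0.43).

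Slc2a3, the GLUT3 gene (chromosome 6, cluster 10547641), ran the other way. It rose in alpha cells by 0.51 (SE 0.13, limma adjusted p = 0.0375), with 5.64, 5.04, 5.50, 5.58 and 5.91 on alpha replicates 1 to 5, against 5.10, 5.09, 4.93, 4.89 and 5.08 on beta arrays. Alpha replicate 2 lay inside the beta range and the other 4 lay above it. All 15 values were below the median of their own array, so the signal was dim, and a fold from a dim signal can understate the difference. The call was lost under 11 of 24 alternatives, among them fits without any one of beta replicates 1 to 5 or alpha replicates 1, 3, 4 and 5 (limma adjusted p 0.0524 to 0.0831), and without alpha replicate 2 the difference was 0.64 (limma adjusted p = 0.00175). Pdx1-deficient arrays read 5.32, 5.14, 5.03, 5.30 and 5.30, with 4 of 5 above every beta array. Their difference from beta arrays was 0.20 (95% interval -0.07 to 0.47, limma adjusted p = 0.357). That from alpha arrays was -0.32 (95% interval -0.59 to -0.04), which did not pass over all genes (limma adjusted p = 0.754). Stromal markers ran in the same direction as Slc2a3: the mean of 8 genes was 5.58 to 5.82 on Pdx1-deficient arrays, 6.05, 5.39, 6.17, 5.81 and 5.93 on alpha replicates 1 to 5 and 5.32 to 5.55 on beta arrays, and 1 of the 8, the pericyte gene Rgs5, passed in alpha against beta cells (1.07, limma adjusted p = 0.0365). Endothelial markers (8 genes) had means of 5.08 to 5.34, 5.02 to 5.41 and 5.03 to 5.20 in the same order, and leukocyte markers (9 genes) 4.98 to 5.32, 5.10 to 5.38 and 4.98 to 5.35. Delta-cell markers (3 genes) had means of 8.81 to 9.94, 9.59 to 10.73 and 9.40 to 10.13, and 1 of the 3, Rbp4, passed in alpha against beta cells (1.04, limma adjusted p = 0.0462). Their part in the Slc2a3 result, and in the other alpha results, was not tested.

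**Figure D2:**
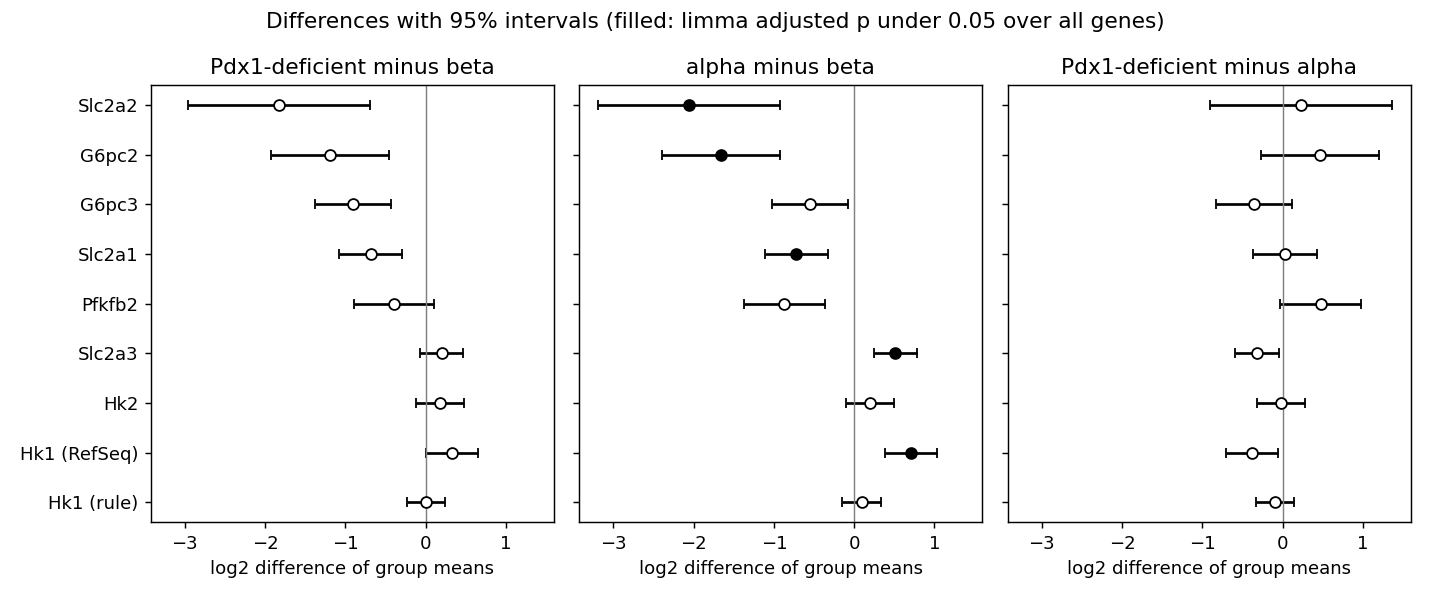
Log2 difference of group means (x axis) for each gene with its 95% interval from limma, for Pdx1-deficient minus beta, alpha minus beta and Pdx1-deficient minus alpha arrays (5 arrays per group). Filled points passed an adjusted p under 0.05 over all genes: 0 in the first panel, Slc2a2, G6pc2, Slc2a1, Slc2a3 and Hk1 by its RefSeq cluster in the second, and 0 in the third.

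The phosphatase gene G6pc2 (chromosome 2, cluster 10472531) followed Slc2a2. It read 12.17, 10.32, 11.21, 10.67 and 9.80 on Pdx1-deficient replicates 1 to 5, against 12.05, 12.12, 11.92, 12.12 and 11.93 on beta arrays. Beta arrays were very close together, with an SD of 0.10, where the Pdx1-deficient SD was 0.91. Replicate 1 lay above the beta range and the other 4 lay below it. The difference of -1.19 (95% interval -1.93 to -0.46), or 2.28-fold lower, did not pass (limma adjusted p over all genes = 0.0888; exact permutation p = 0.0476), and with the array labelled Pdx1-deficient replicate 1 left out G6pc2 differed by -1.53 and passed (limma adjusted p = 0.0107). Without Pdx1-deficient replicates 4 and 5 it was -0.79 (limma adjusted p = 0.514). In both fits the arrays left out were singled out from their values in these data, so neither is an independent result.

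In alpha cells G6pc2 fell 3.15-fold, or -1.65 as a log2 difference (SE 0.34; limma adjusted p = 0.0171 over all genes; exact permutation p = 0.00794). Alpha replicates 1 to 5 read 10.75, 10.80, 9.92, 10.64 and 9.75, all more than 1 log2 unit below the lowest beta array. Of all genes, 4.05% were lower in alpha than in beta without overlap. It passed in 14 of 15 fits that left out 1 array and was lost without alpha replicate 3 (limma adjusted p = 0.051). Pdx1-deficient minus alpha arrays gave 0.46 (95% interval -0.27 to 1.20, limma adjusted p = 0.969).

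G6pc3, the more widely expressed phosphatase gene (chromosome 11, cluster 10381539), read 8.12, 7.29, 7.81, 7.86 and 6.93 on Pdx1-deficient replicates 1 to 5, against 8.66, 8.12, 8.56, 8.16 and 9.02 on beta arrays. On replicates 2 to 5 it lay below every beta array, and on replicate 1 at the lowest beta value. The difference of -0.90 (95% interval -1.38 to -0.43), or 1.87-fold lower, did not pass (limma adjusted p over all genes = 0.0617; exact permutation p = 0.0159). It passed once the array labelled Pdx1-deficient replicate 1 was left out (-1.03, limma adjusted p = 0.0291), with array medians subtracted (-1.001, limma adjusted p = 0.0386) and with dim clusters removed (limma adjusted p = 0.0396). Replicate 1 was singled out from its values in these data, so the fit without it is no independent result. In alpha arrays it read 7.77, 8.12, 7.60, 8.13 and 8.18, a difference from beta of -0.55 (95% interval -1.02 to -0.07, limma adjusted p = 0.178). Pdx1-deficient minus alpha arrays gave -0.35 (95% interval -0.83 to 0.12, limma adjusted p = 0.95).

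Pfkfb2 (chromosome 1, cluster 10357535) had 9.63, 8.97, 9.25, 8.60 and 8.99 on Pdx1-deficient replicates 1 to 5, against 9.15, 9.65, 9.58, 9.80 and 9.21 on beta arrays, so that 3 of 5 lay below every beta array. The difference of -0.39 (95% interval -0.89 to 0.11) did not pass (limma adjusted p = 0.322). On alpha replicates 1 to 5 it read 8.20, 9.20, 8.38, 9.14 and 8.14. Replicate 2 lay inside the beta range, replicate 4 just under it, and the other 3 well under it, at 8.38 or less. The difference from beta of -0.87 (95% interval -1.37 to -0.37) lay just short of the threshold (limma adjusted p = 0.0516; exact permutation p = 0.0159). It passed without any one of alpha replicates 2 and 4 or Pdx1-deficient replicates 1 and 4 (limma adjusted p 0.0172 to 0.0447). Pdx1-deficient minus alpha arrays gave 0.47 (95% interval -0.03 to 0.98, limma adjusted p = 0.857).

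Hk1 (chromosome 10) had 2 clusters that carried its symbol alone and differed in brightness. The bright one, chosen by the rule, is annotated to Hk1 through 1 deposited sequence only, which the platform also lists for all 16 clusters annotated to both Hk1 and the ribosomal protein gene Rpl17. The dim one carries 2 RefSeq transcripts of Hk1 as well. Those 16 clusters had means over the 15 arrays of 10.19 to 11.42, where the bright cluster had 10.92 and the dim one 5.23. The annotation does not settle that the bright cluster measures Hk1, so its values are given as those of the cluster, and member counts are given with each cluster. Across the 15 arrays their signals had a Pearson r of -0.198, given as a description. The cluster of the rule read 10.86, 11.18, 10.93, 10.58 and 10.92 on Pdx1-deficient, 11.21, 11.13, 10.85, 10.81 and 10.93 on alpha and 10.94, 10.98, 10.90, 10.69 and 10.95 on beta arrays. Its differences from beta were near 0 (-0.0003 for Pdx1-deficient, 95% interval -0.24 to 0.24, and 0.09 for alpha, 95% interval -0.15 to 0.33).

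The RefSeq cluster of Hk1, considered after its values were seen, read 5.26, 5.02, 5.17, 5.37 and 5.21 on Pdx1-deficient, 5.21, 5.20, 5.92, 6.09 and 5.53 on alpha and 4.96, 4.98, 4.81, 4.76 and 4.90 on beta arrays. Every Pdx1-deficient and every alpha array lay above every beta array. Groups did not overlap in this direction for 2.77% of all genes in Pdx1-deficient and 2.29% in alpha against beta. Of its 15 values, 14 were below the median of their own array. In the fit across all genes, Hk1 by this cluster rose in alpha cells by 0.71 (SE 0.15, limma adjusted p = 0.0202; exact permutation p = 0.00794), or 1.64-fold. It passed in 13 of 15 fits that left out 1 array, was lost without beta replicate 4 or alpha replicate 3 (limma adjusted p = 0.0512 and 0.0566), and passed with the replicate number as a block (0.037). The rise in the mean was carried by replicates 3 to 5, while replicates 1 and 2 lay with the Pdx1-deficient arrays. In Pdx1-deficient cells the difference from beta was 0.32 (SE 0.15, limma adjusted p = 0.23; exact permutation p = 0.00794), which did not pass, and against alpha it was -0.39 (95% interval -0.71 to -0.06, limma adjusted p = 0.744). The stromal means given beside Slc2a3 were above the beta range on alpha replicates 1, 3, 4 and 5 and on all Pdx1-deficient arrays, and their part in this rise was not tested. Hk2 (chromosome 6, cluster 10545588) read 5.37, 4.98, 4.97, 5.55 and 5.54 on Pdx1-deficient, 5.31, 4.92, 5.33, 5.35 and 5.58 on alpha and 5.01, 5.10, 4.94, 5.21 and 5.26 on beta arrays, all below their own array's median. Groups overlapped, and no Hk2 difference passed: 0.18 for Pdx1-deficient against beta (95% interval -0.12 to 0.48), 0.19 for alpha against beta (-0.11 to 0.49) and -0.02 for Pdx1-deficient against alpha (-0.32 to 0.28).

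Counted over the 8 members by the rule, 1 rose and 3 fell in alpha compared with beta cells and 4 did not pass, beside 0.893% of all genes called higher and 3.15% called lower. With Hk1 by its RefSeq cluster, 2 rose, 3 fell and 3 did not pass. The members' median difference was -0.63 where that of all genes was 0.04. Of the 3 that fell, Slc2a2 and G6pc2 were also on the list of beta-cell markers. The members were chosen with earlier results of these data known, so these counts and medians are a description and no test of the pathway. In Pdx1-deficient compared with beta cells 0 of 8 passed, beside 1.09% of all genes, and 4 of the 8 had an unadjusted p under 0.05, beside 21.8% of all genes. Their median difference was -0.54, against 0.06 for all genes. Both comparisons share the beta arrays. Between Pdx1-deficient and alpha cells 0 of 8 passed, beside 0% of all genes, 1 of the 8 had an unadjusted p under 0.05 (6% of all genes), and 0 of 8 had groups that did not overlap, beside 0.637% of all genes (0.356% higher and 0.281% lower).

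Within the Pdx1-deficient group the arrays were far apart, and the spread was shared by several members. The array labelled replicate 1, whose Pdx1 lay in the beta range, had the highest signal of its group for Slc2a2, G6pc2, G6pc3, Slc2a1 and Pfkfb2, and by a narrow margin for Slc2a3. The lowest array was replicate 4 for Pdx1, Slc2a2 and Pfkfb2 and replicate 5 for G6pc2, G6pc3 and Slc2a1. Replicates 4 and 5 also had the highest array medians (6.03 and 6.05, where beta arrays had 5.88 to 5.93) and were the least correlated with the rest of their group (mean r 0.937 and 0.94, where replicates 1 to 3 had 0.953 to 0.956). The part of these array properties in the members' signals was not tested. As a description, with the group mean taken off each array, Pearson r of Slc2a2 with Pdx1 was 0.799 over 15 arrays and 0.47 over 14 without Pdx1-deficient replicate 1. For G6pc2 with Pdx1 it was 0.573 and 0.075, and for Slc2a2 with G6pc2 it was 0.717 and 0.295. These r values fell without that 1 array, while Slc2a1 with Slc2a2 (0.548 and 0.665), Slc2a1 with G6pc2 (0.532 and 0.534) and Slc2a3 with Hk2 (0.767 and 0.763) kept values above 0.5. Some negative r grew in size, such as Slc2a3 with Pfkfb2 (-0.575 and -0.722) and Hk2 with Pdx1 (-0.277 and -0.558). These points share arrays and array-wide scaling.

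**Figure D3:**
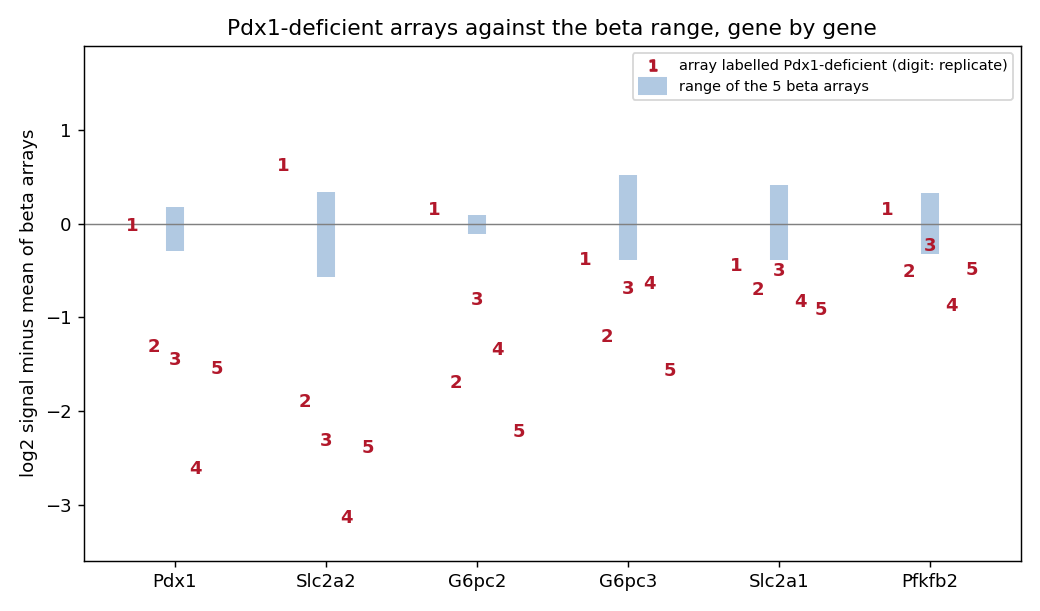
Log2 signal of each Pdx1-deficient array minus the mean of the beta arrays (y axis) for Pdx1 and the 5 members lower on average in both comparisons with beta arrays. Red digits are replicate numbers and blue bars span the 5 beta arrays. Replicate 1 lies above the beta range for Slc2a2 and G6pc2, inside it for Pdx1 and Pfkfb2, at its lower edge for G6pc3 and below it for Slc2a1, while replicates 2 to 5 lie below the beta range for every gene drawn except replicate 3 for Pfkfb2.

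The genes that ran most like each member across the 15 arrays were named by Pearson r, as a description. Slc2a2 ran with Ppp1r1a, a protein phosphatase inhibitor gene (0.952), Akr1c12 (0.949) and the monoamine oxidase gene Maob (0.944). G6pc2 ran with Atp2a2, the gene of a calcium pump of the endoplasmic reticulum (0.95), the calcium-binding protein gene S100a4 (0.941) and Epb41l3 (0.933). Slc2a1 ran with the transketolase gene Tkt (0.94), the lysosomal glucosidase gene Gaa (0.938) and the lysosomal protease gene Ctsa (0.934), and G6pc3 with the respiratory chain gene Ndufb7 (0.938), the vitamin K epoxide reductase gene Vkorc1 (0.911) and Gmppa (0.909). Pfkfb2 ran with Tmem64 (0.928), Gdap2 (0.926) and the receptor gene Gpr158 (0.921). Slc2a3 ran with the mitochondrial carrier gene Slc25a33 (0.952), Cdca7l (0.934) and the phosphatase subunit gene Ppp2r2b (0.932). Hk2 ran with Klk12 (0.93), the microRNA gene Mir125a (0.926) and Fstl3 (0.898), and Hk1 by its RefSeq cluster with Spats2l (0.922), Cit (0.917) and Pkd1l1 (0.906). The Hk1 cluster of the rule had no partner as close, with Polg2 at 0.822, ccdc198 at 0.748 and Sertad3 at 0.748.

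The other genes of the pathway were taken from 5 lists, 39 of whose 41 genes were analysed here. In alpha compared with beta cells 3 of the 39 fell and 0 rose, a lower share of 7.69% beside 3.15% of all genes, and the median difference was -0.04 where that of all genes was 0.04. In Pdx1-deficient compared with beta cells 0 of 39 passed (median 0.09, all genes 0.06), and between Pdx1-deficient and alpha cells 0 of 39 passed.

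Among the other transporters 1 of 15 fell in alpha cells, Slc2a5, a fructose transporter gene, by 0.69 (SE 0.16, limma adjusted p = 0.0248). It read 7.80, 7.95, 7.88, 7.35 and 7.96 on alpha replicates 1 to 5, against 8.68, 8.002, 8.33, 8.61 and 8.77 on beta arrays, with no overlap. The same held, in this direction, for 4.05% of all genes. The call was lost without any one of beta replicates 1, 4 and 5 or alpha replicates 1, 3 and 4 (limma adjusted p 0.0512 to 0.0635). On Pdx1-deficient arrays Slc2a5 differed from beta by -0.48 (limma adjusted p = 0.115). The remaining transporters, among them the insulin-responsive transporter gene Slc2a4 and the sodium-coupled transporter genes Slc5a1 and Slc5a2, differed from beta by at most 0.40 in either direction on Pdx1-deficient arrays. Of the 5 other sugar kinase genes on the lists 0 passed. Differences in Pdx1-deficient against beta cells ran from -0.52 for Nagk, an N-acetylglucosamine kinase gene, to 0.19 for the hexokinase gene Hk3.

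Of 5 other genes of the glucose 6-phosphatase and Slc37 families, 1 fell in alpha cells, Slc37a3, a sugar-phosphate exchanger family gene, by 0.78 (SE 0.20, limma adjusted p = 0.0448). It read 7.41, 7.41, 6.99, 7.09 and 7.77 on alpha replicates 1 to 5, against 8.51, 7.91, 7.95, 8.17 and 8.01 on beta arrays. Pdx1-deficient arrays, at 7.88, 7.62, 7.61, 6.71 and 7.58, also lay below every beta array, with a difference of -0.63 that did not pass (limma adjusted p = 0.115). Of all genes, 4.05% were lower without overlap in alpha and 3.18% in Pdx1-deficient against beta. The alpha call was lost in 11 of 15 fits that left out 1 array, with limma adjusted p up to 0.115. Slc37a4, the glucose 6-phosphate transporter gene of the endoplasmic reticulum, differed from beta by -0.57 and -0.56 in Pdx1-deficient and alpha cells (limma adjusted p = 0.267 and 0.295).

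Of 8 phosphofructokinase and fructose bisphosphatase genes, 1 fell in alpha cells, the muscle-type phosphofructokinase gene Pfkm, by 0.75 (SE 0.18, limma adjusted p = 0.0324). It read 7.20, 7.65, 7.55, 7.16 and 6.79 on alpha arrays and 8.45, 7.58, 8.02, 7.78 and 8.27 on beta arrays, and the call was lost without any one of beta replicates 1, 3 and 5 or alpha replicates 1, 4 and 5 (limma adjusted p 0.0605 to 0.0791) and with the replicate number as a block (0.062). Pfkfb3, the relative of Pfkfb2 with the highest kinase activity, was scattered, with 6.37, 6.50, 7.83, 6.27 and 9.03 on Pdx1-deficient, 6.76, 8.56, 5.60, 6.01 and 6.43 on alpha and 7.36, 5.74, 5.96, 5.69 and 5.42 on beta arrays, and its difference of 1.17 between Pdx1-deficient and beta cells did not pass (limma adjusted p = 0.263).

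A pair of list genes, chosen after their values were seen, turned on 1 alpha array. Fbp1, the fructose bisphosphatase gene of gluconeogenesis, read 5.12, 4.52, 4.90, 5.45 and 4.99 on Pdx1-deficient arrays, 5.84, 4.51, 5.94, 6.57 and 6.34 on alpha arrays and 4.92, 4.80, 5.01, 4.48 and 4.76 on beta arrays. The array labelled alpha replicate 2 lay among the Pdx1-deficient and beta arrays and the other 4 above all of them. Fbp1 in alpha against beta cells gave 1.05 (limma adjusted p = 0.0597) with all arrays and 1.38 (limma adjusted p = 0.000743) without that array, and in Pdx1-deficient against alpha cells -0.84 (limma adjusted p = 0.608) and -1.18 (limma adjusted p = 0.00681). Mlxipl, which encodes the glucose-responsive factor ChREBP, read 8.41, 8.73, 8.97, 9.30 and 9.33 on Pdx1-deficient arrays, 7.68, 8.60, 7.95, 7.84 and 7.38 on alpha arrays and 8.68, 8.53, 8.65, 8.54 and 8.91 on beta arrays. In Pdx1-deficient against alpha cells it gave 1.06 (limma adjusted p = 0.264) with all arrays and 1.24 (limma adjusted p = 0.00356) without alpha replicate 2, and in alpha against beta cells -0.77 (limma adjusted p = 0.0512) and -0.95 (limma adjusted p = 0.00573). In Pdx1-deficient against beta cells it gave 0.29 (limma adjusted p = 0.407). Txnip, which encodes an inhibitor of glucose uptake, differed by 0.09 and -0.04 from beta in Pdx1-deficient and alpha cells, and 0 of the 6 regulators passed.

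**Figure D4:**
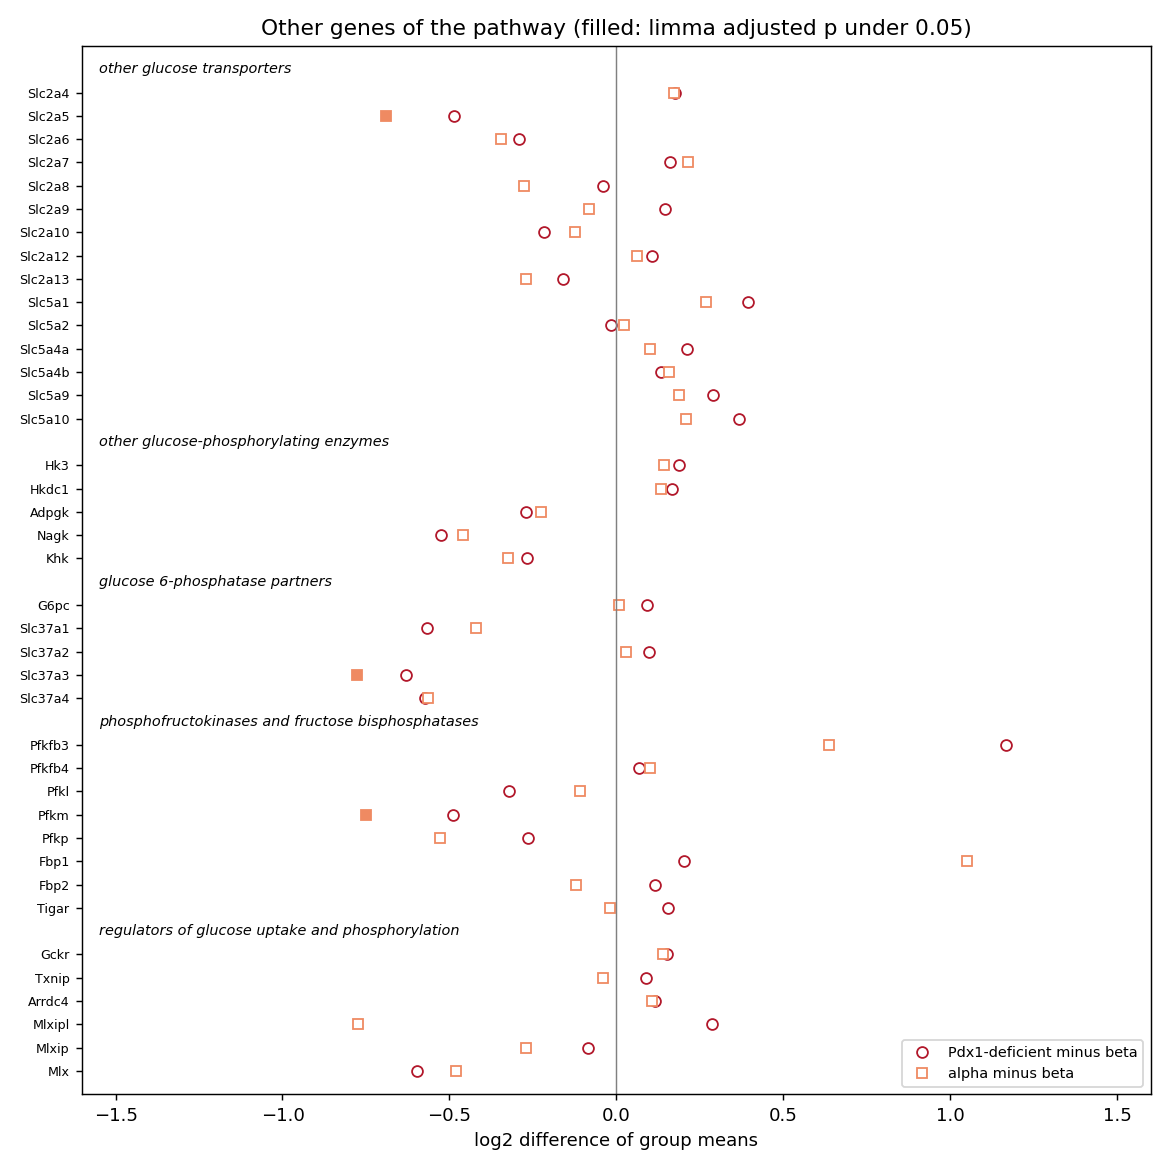
Log2 difference of group means (x axis) of the 39 other pathway genes, by list, for Pdx1-deficient minus beta (circles) and alpha minus beta (squares), 5 arrays per group. Filled symbols passed an adjusted p under 0.05: Slc2a5, Slc37a3 and Pfkm in alpha cells, all lower than in beta cells.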

How the data were processed

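Each array was an Affymetrix Mouse Gene 1.0 ST array made from 500 ng of total RNA, per the labels' protocols. The deposited values, 1 per transcript cluster and array, run from 2.11 to 13.45, which shows a log scale. They were read as log2, so each fold stated assumes base 2. The authors processed the arrays in Affymetrix Expression Console, per the submitters' processing notes; version, summarization, background correction and build: not given in the sources used here. For arrays their number, 5 per group, limits the precision.

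Of 35556 clusters, 21789 carried 1 gene symbol in the platform annotation, 1621 several and 12146 none; 21698 of the single-symbol clusters matched the reference gene table (GRCm38.p6, for names), and 0 symbols changed. Each of 19938 genes was represented by its brightest single-symbol cluster. Groups were compared in limma 3.58.1 (R 4.3.3; lmFit and eBayes, 3 group means over 15 arrays), with Benjamini-Hochberg adjustment over all genes and a threshold of 0.05. Intervals are unadjusted 95% intervals of this fit. Exact permutation tests of single members were two-sided over 252 splits. The fit was tested on simulated data. "Dim clusters removed" kept clusters above the median cluster mean of 5.98.

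The members and lists were chosen with earlier results of these data known. Named genes were the 8 members, list genes past the threshold, and the 3 genes with the highest Pearson r to each member, without Gm and Rik symbols, and Pdx1. Outside that rule, and after their values were seen, the text also names marker genes and the list genes Pfkfb3, Slc37a4, Fbp1, Mlxipl, Txnip, Nagk, Hk3, Slc2a4, Slc5a1 and Slc5a2, which did not pass. Replicate numbers are shared by the groups. Deviations of same-numbered arrays from their group means correlated at -0.12 to 0.114 (Pdx1-deficient with beta), 0.00504 to 0.224 (alpha with beta) and -0.172 to 0.221 (Pdx1-deficient with alpha), so the numbers were not taken to pair samples. Promoter sequences are RefSeq's, build GRCm38.p6.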

Additional observations from a re-analysis of the deposited data

Results flagged for a closer look

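The Hk1 cluster of the rule had 1 beta array apart from the rest of its group: beta replicate 4 read 10.69, while the other 4 read 10.90 to 10.98. Its gap to the nearest array was 0.737 of the group's range, above the critical value of 0.71 for 5 arrays. It was the only one of 27 sets of 5 arrays to stand out in this way, and chance alone flags about 1 in 20 such sets.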

How the results depend on the processing

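Of 594 recomputed differences of members, 516 kept their direction and their side of the threshold, 36 lost and 19 gained a call, and 23 changed sign. All 23 concerned Hk1, or Slc2a1, Slc2a2 and Hk2 in Pdx1-deficient against alpha. Only 4 of the 24 member comparisons passed in the main fit, all in alpha against beta, so only these could lose a call. Losses were 12 of 25 for Slc2a1, 12 of 25 for Slc2a2, 11 of 24 for Slc2a3 and 1 of 25 for G6pc2. Leaving out an array of the group not compared cannot change a difference, so the 516 overstate how stable the calls were. Hk1 (cluster of the rule, -0.0003 in Pdx1-deficient against beta) turned to 0.14 quantile normalized again, 0.16 as the mean of its clusters, 0.32 by its RefSeq cluster, 0.0078 without both arrays that stand apart (Pdx1-deficient replicate 1 and alpha replicate 2), 0.097 without Pdx1-deficient replicates 4 and 5, and lay between -0.0715 and 0.0786 when single arrays were left out. Against alpha it turned to 0.010 quantile normalized again and 0.0051 without Pdx1-deficient replicates 4 and 5. For Pdx1-deficient against alpha, leaving out single arrays gave -0.0874 to 0.121 for Slc2a1, -0.383 to 0.556 for Slc2a2, -0.111 to 0.062 for Hk2 and -0.454 to 0.194 for Pdx1; without both arrays that stand apart Slc2a1 was -0.022 and Slc2a2 -0.37, and without Pdx1-deficient replicates 4 and 5 Pdx1 was 0.35.

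The number of members passing in Pdx1-deficient against beta was 0, and 2 with array medians subtracted, 1 with dim clusters removed, 3 without both arrays that stand apart, and 0 to 3 when single arrays were left out, 3 without Pdx1-deficient replicate 1. In alpha against beta it was 4, and 1 quantile normalized again, 2 in a fit of only the 2 groups, 2 with the replicate number as a block, and 0 to 5 over single leave-outs, with 0 without alpha replicate 3. Over all genes, the 217 calls of Pdx1-deficient against beta became 615 with medians subtracted, 29 quantile normalized again, 121 with trend and robust moderation, 401 after removal of dim clusters, 89 in a fit of 2 groups, 8 with the replicate block, 626 without both arrays that stand apart, 2 without Pdx1-deficient replicates 4 and 5, and 0 to 548 over leave-outs (0 without Pdx1-deficient replicate 5, where 548 is without Pdx1-deficient replicate 1). The 806 of alpha against beta became 1425 without both arrays that stand apart and 328 to 1430 over leave-outs (without alpha replicate 3 and without alpha replicate 2). The 0 of Pdx1-deficient against alpha became 1 with trend and robust moderation, 1 with dim clusters removed, 1 without Pdx1-deficient replicates 4 and 5, 177 without both arrays that stand apart, and 0 to 145 over leave-outs, 145 without alpha replicate 2. In alpha against beta the replicate block ended the calls of Slc2a1 (0.0566), Slc2a2 (0.0601), Pdx1 (0.0506) and Pfkm (0.062) and changed no other call among the members, both Hk1 clusters included, Pdx1, Slc2a5, Slc37a3, Pfkm, Fbp1 and Mlxipl. The block was not read for other genes. Slc2a3 and Hk2 have no value with dim clusters removed. Of the pathway lists, 0 to 5 genes fell in alpha cells over the alternatives. The cause was not tested in any of these. The settings with Hk1's RefSeq cluster and that without Pdx1-deficient replicates 4 and 5 were chosen after seeing the data. Both arrays that stand apart were also identified from their values in these data. The counts and single-gene results without either or both of them are therefore no independent result.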

Other observations

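Of the 35556 clusters deposited, 10485 (29.5%) hold exactly the same value, to all printed decimals, on 2 or more of the 15 arrays. Among the 9 clusters of the members this was true of 1: G6pc3 is listed at 8.12014 on Pdx1-deficient replicate 1, alpha replicate 2 and beta replicate 2.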
